A study of Homo sapiens with 8 samples.

Results

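The 47 genes described here carry a cell through mitosis. They were taken by symbol from a count table of 36474 genes and comprise 7 cyclin, CDK1 and CDK1-switch genes, 5 genes of mitotic kinases and the chromosomal passenger complex, 5 of the spindle checkpoint and partners of the anaphase-promoting complex, 6 of the kinetochore and centromere, 12 of spindle motors and microtubule proteins, 7 of the midzone and cytokinesis, and 5 of chromosome structure. All 47 were among the 21071 genes that passed the low-count filter. RNA sequencing was performed on LNCaP, an established line from a human prostate carcinoma metastasis, starved without serum or calcium and then given 100 ng/mL of recombinant asporin (ASPN), a small proteoglycan of the extracellular matrix. There were 2 libraries at 0 h, 3 at 12 h and 3 at 24 h, all of the same line. The labels describe every library, including those at 0 h, as ASPN-treated. No 12 or 24 h library without ASPN was analysed here, so time in the starvation medium and ASPN cannot be told apart.

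Library totals ran from 73406825 to 96962135 counts, and mitochondrial genes took 6.2 to 7.32% of them. The prostate luminal markers KLK3, which encodes prostate-specific antigen, and FOLH1, which encodes prostate-specific membrane antigen, were abundant in every group. KLK3 averaged 965 ± 75.5 CPM (a gene's counts relative to its library's TMM-scaled total; SD, n = 2) at 0 h, 1356 ± 33.3 (SD, n = 3) at 12 h and 1194 ± 68.1 (SD, n = 3) at 24 h. The keratin KRT8 averaged 483 ± 6.95 CPM, 514 ± 13.5 CPM and 526 ± 4.32 CPM at the same times. The 8 luminal markers examined summed to 4330 to 4410 CPM at 0 h, 4800 to 4850 at 12 h and 4800 to 4990 at 24 h. Their log2 changes between 0 and 24 h ran from -0.145 to 0.312. Of 12 markers of immune, endothelial, fibroblast and basal cells, 10 were in the table, and their summed level was 37.4 to 39.3 CPM at 0 h, 36 to 38.2 at 12 h and 32.3 to 34.5 at 24 h. The part of those markers in the results below was not tested.

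Mitosis begins when cyclin B binds and switches on the kinase CDK1. PLK1 and the Aurora kinases then mature the centrosomes and build the spindle, kinetochores join each chromosome to spindle microtubules, and the spindle checkpoint holds the anaphase-promoting complex in check until every chromosome is attached. Genes for these proteins are transcribed late in the cell cycle, peaking in G2 and mitosis, and are held down in G1 and in resting cells. Their promoters are known for the cell cycle genes homology region (CHR, letters TTTGAA), bound by the DREAM and B-MYB-MuvB complexes together with FOXM1, and for CCAAT boxes, bound by NF-Y. In a population of cells, fewer cells in G2 and mitosis and less RNA per cell cannot be told apart in bulk counts.

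RefSeq promoter windows around a transcript start (GRCh38.p14) were available for 40 of the 47 genes; those of TTK, BIRC5, RACGAP1, UBE2C, TPX2, AURKA and CDCA2 were not matched. The 120 bases before the start are shown for 5 of the genes whose values are given below, chosen to differ in these elements. CHR and CCAAT letters, in either orientation, are in capitals. CCNB2 (chr15:59105026-59105145, plus strand) held 3 CCAAT boxes with a CHR 29 bases before the start, CDC20 (chr1:43358861-43358980, plus strand) and MKI67 (chr10:128126424-128126543, minus strand) held both elements, CCNB1 (chr5:69167030-69167149, plus strand) held CCAAT boxes alone, and KIF2C (chr1:44739717-44739836, plus strand) held neither.
CCNB2: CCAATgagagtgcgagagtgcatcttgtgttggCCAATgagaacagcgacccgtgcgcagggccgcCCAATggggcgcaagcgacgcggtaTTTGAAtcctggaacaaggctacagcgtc
CDC20: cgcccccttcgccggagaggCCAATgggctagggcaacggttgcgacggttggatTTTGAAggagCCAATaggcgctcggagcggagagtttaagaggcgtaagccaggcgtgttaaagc
MKI67: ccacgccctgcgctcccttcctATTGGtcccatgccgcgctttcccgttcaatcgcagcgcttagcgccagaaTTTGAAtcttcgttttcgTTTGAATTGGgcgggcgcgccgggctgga
CCNB1: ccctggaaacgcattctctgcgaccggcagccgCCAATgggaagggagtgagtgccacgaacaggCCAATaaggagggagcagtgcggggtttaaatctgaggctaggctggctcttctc
KIF2C: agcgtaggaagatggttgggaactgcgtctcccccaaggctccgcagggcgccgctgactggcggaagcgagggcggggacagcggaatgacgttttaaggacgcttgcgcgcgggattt

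The 3 CCAAT boxes of CCNB2 began 120, 87 and 54 bases before the start, neighbours 33 bases apart, and those of CCNB1 began at 87 and 55 bases, 32 apart. In CDC20 the CHR began 65 bases before the start, between CCAAT boxes at 100 and 55. MKI67 held CHR letters at 47 and 29 bases and reversed CCAAT boxes at 98 and 24, the last sharing a base with the nearer CHR. A CHR occurred in 75% of the genes with a window (30 of 40) and in 18.2% of all 27305 genes with RefSeq windows. A CCAAT box occurred in 77.5% (31 of 40) against 39.7%, and both elements in the same window in 62.5% (25 of 40) against 7.26%. A CHR beginning 20 to 30 bases before the start was found in 12 of 40 genes (30%) and in 0.762% of all genes. CCAAT boxes 31 to 33 bases apart were found in 5 of 40 (12.5%) and in 1.31% of all genes. The positions and spacings were chosen after the windows had been read. These are matches to the exact letters, which do not show binding. Variant forms of the elements were not searched, so a gene counted as without one may hold a variant.

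**Figure D1:**
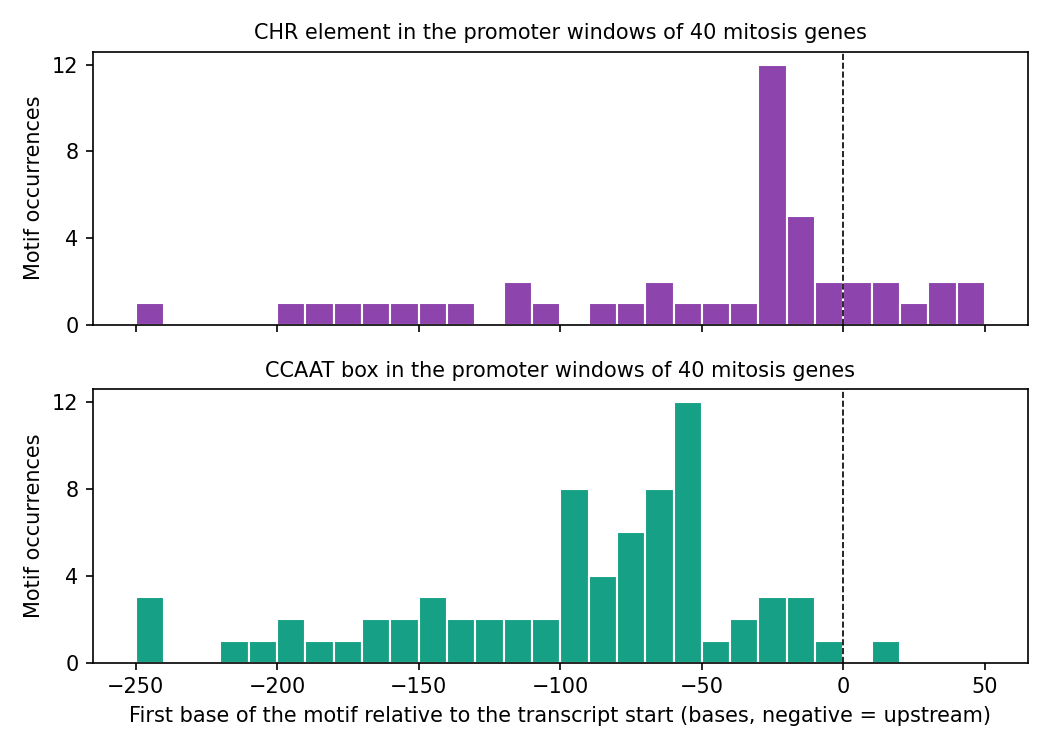
Positions of CHR elements (top) and CCAAT boxes (bottom) in the promoter windows of 40 mitosis genes. The horizontal axis is the first base of the motif relative to the transcript start in bases, the vertical axis the number of occurrences per 10 bases, and the dashed line the start. The highest CHR bar lies between 30 and 20 bases before the start, and the CCAAT boxes collect between 100 and 50 bases before it.

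At 24 h the group was lower, while at 12 h it stood near its 0 h level. Against 12 h, 24 of the 47 genes fell by 24 h at an adjusted p of at most 0.05 (edgeR quasi-likelihood F test, adjusted over all genes tested) and 0 rose, where 1.61% of all tested genes fell and 1.12% rose. Against 0 h, 21 of 47 fell by 24 h and 0 rose, where 8.49% of all tested genes fell and 7.82% rose. Between 0 and 12 h, 0 of 47 fell and 2 rose (MKI67 and TACC3), where 6.75% of all tested genes fell and 4.85% rose. At an unadjusted p under 0.05, 39 of the 47 genes were lower at 24 than at 12 h and 0 higher, beside 6.86% and 6.74% of all genes tested. At the same p, 34 were lower at 24 than at 0 h and 0 higher, beside 14% and 13.3% of all genes. Between 0 and 12 h 5 were lower and 5 higher, shares near those of all genes (12.9% lower and 10.6% higher). DESeq2 also found 0 genes that fell between 0 and 12 h and 0 that rose to 24 h. The comparisons with 24 h share the 24 h libraries, and those with 0 h share the 0 h libraries, so they are not independent of each other.

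The changes were small. The median log2 change of the 47 genes was -0.21 between 12 and 24 h (range -0.36 to 0.35), -0.18 between 0 and 24 h (-0.49 to 0.02) and 0.01 between 0 and 12 h (-0.70 to 0.18), beside 0.003, -0.003 and -0.001 for all genes tested. No gene of the 47 passed both the adjusted p and a 1.5-fold change in any comparison, in edgeR or DESeq2, beside 0.18% of all genes at 24 against 12 h, 2.45% at 24 against 0 h and 1.05% at 12 against 0 h in edgeR. With an unadjusted p under 0.05 in place of the adjusted p the count was also 0 in each, beside 1.84%, 4.7% and 3.07% of all genes. Every 24 h library lay below every 12 h library for 34 of the 47 genes (9.33% of all genes) and below every 0 h library for 34 (21.7% of all genes). Between 0 and 12 h, 7 genes had all 12 h libraries below both 0 h libraries (19.6% of all genes) and 7 had them all above (17.3%).

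**Figure D2:**
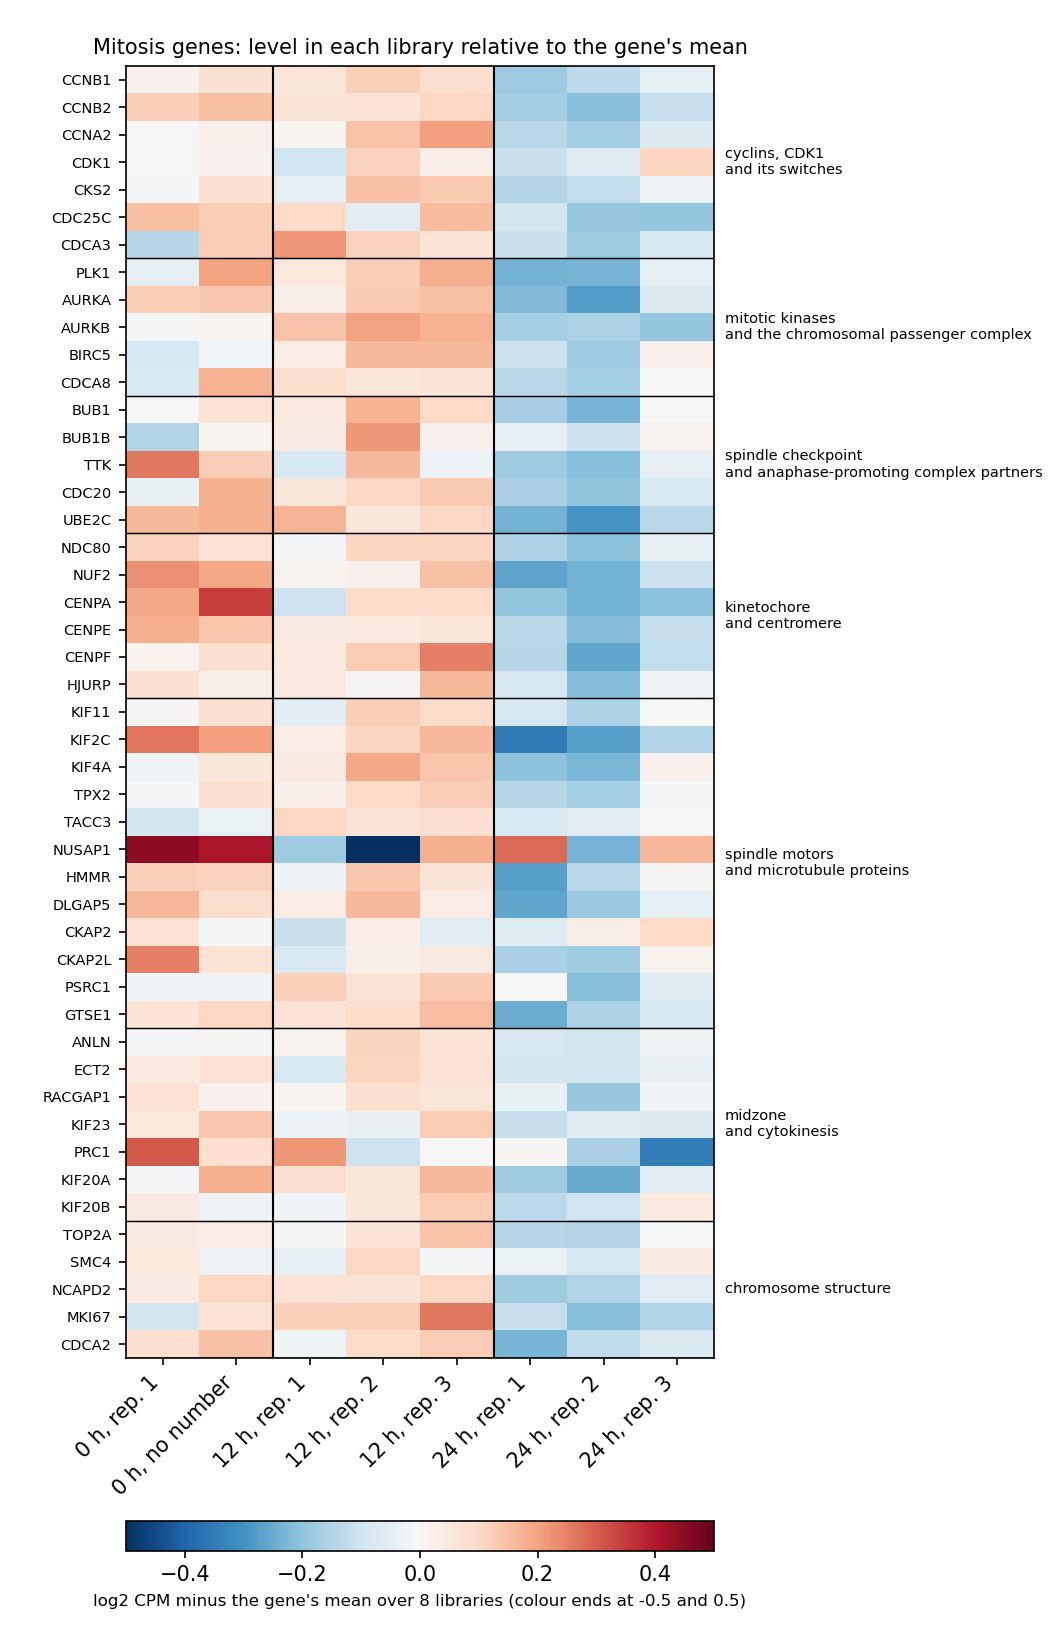
Level of each of the 47 mitosis genes (rows, grouped by role) in each of the 8 libraries (columns). Colour is log2 CPM minus the gene's mean over the 8 libraries, red above and blue below, ending at -0.5 and 0.5. Most rows are blue in the 24 h columns and palest there in replicate 3. NUSAP1 and PRC1 have at most 51 and 130 counts in any library. Their 24 h libraries lie below both 0 h libraries but overlap those of 12 h.

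The 24 h libraries differed among themselves. The 47 genes summed to 2357 and 2431 CPM at 0 h, to 2347, 2467 and 2490 CPM in 12 h replicates 1 to 3, and to 2080, 2057 and 2243 CPM in 24 h replicates 1 to 3. The 24 h replicate 3 library was thus the nearest to the earlier groups, though still below each of their libraries. The median of log2 CPM relative to each gene's mean over all libraries was 0.05 and 0.08 at 0 h, 0.04, 0.10 and 0.11 at 12 h, and -0.14, -0.18 and -0.04 at 24 h. With 24 h replicate 3 left out, 25 genes were lower at 24 h than at 0 h and 24 lower than at 12 h. With 24 h replicate 1 left out, 8 genes were lower than at 12 h, with 24 h replicate 2 left out 10, and with 12 h replicate 3 left out 13, and all of these genes were among the 24. The median log2 change then ran from -0.194 to -0.187.

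**Figure D3:**
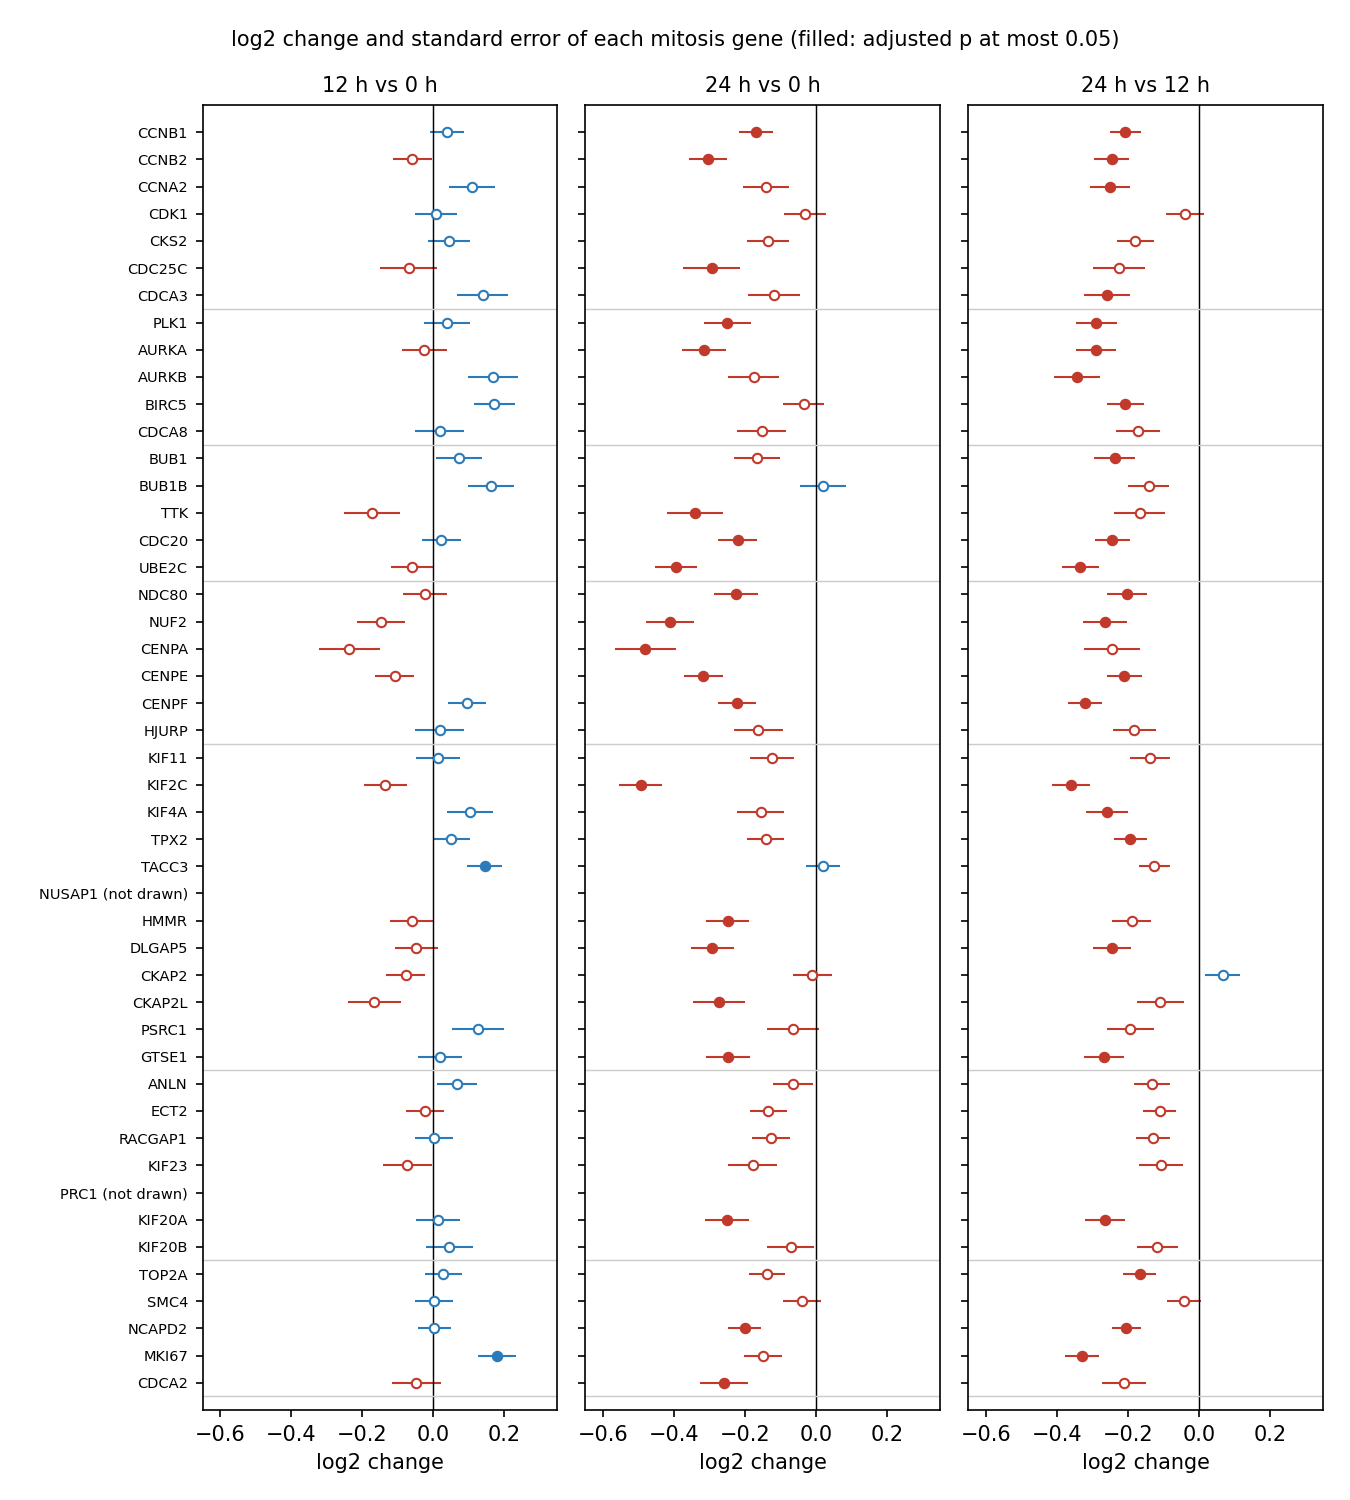
log2 change of each mitosis gene between time points (horizontal axis) with its standard error; filled points passed an adjusted p of 0.05, red points are below 0 and blue points above. NUSAP1 and PRC1 are left out of the drawing because of their wide errors. In the 24 h panels 24 and 21 points are filled, all below 0, and in the 12 h panel 2 are filled, both above 0.

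Among the cyclins and CDK1 switches, 4 of 7 genes fell between 12 and 24 h (CCNB1, CCNB2, CCNA2 and CDCA3) and 3 of 7 between 0 and 24 h (CCNB1, CCNB2 and CDC25C), with median log2 changes of -0.23 and -0.14. CCNB1 (chr5:69167135-69178245), cyclin B1, stood at 116 and 119.9 CPM at 0 h, 119, 124 and 121 CPM at 12 h, and 100.5, 104 and 110.1 CPM at 24 h. All 3 libraries at 24 h were below all 5 earlier ones, with a log2 change of -0.21 against 12 h (SE 0.04, adjusted p = 0.00458) and -0.17 against 0 h (SE 0.05, adjusted p = 0.0131). CCNB2 (chr15:59105126-59125045), cyclin B2, stood at 47.1 and 48.0 CPM at 0 h, 45.2, 45.3 and 46.4 CPM at 12 h, and 38.3, 37.3 and 39.9 CPM at 24 h. Its libraries again did not overlap between 24 h and the earlier times, with log2 changes of -0.25 (SE 0.05, adjusted p = 0.00288) and -0.30 (SE 0.05, adjusted p = 0.000101).

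For their kinase no change was detectable. CDK1 (chr10:60778331-60794852) stood at 82.0 and 83.4 CPM at 0 h, 76.6, 89.0 and 84.1 CPM at 12 h, and 76.0, 78.6 and 88.4 CPM at 24 h. The 3 groups overlapped throughout, with log2 changes of -0.04 against 12 h (SE 0.05, adjusted p = 0.818) and -0.03 against 0 h (SE 0.06, adjusted p = 0.802). CCNA2, cyclin A2, which also acts in S phase, had a log2 change of -0.25 between 12 and 24 h (adjusted p = 0.0107), and CDCA3, which promotes mitotic entry, one of -0.26 (adjusted p = 0.022). CDC25C, the phosphatase that activates CDK1, had -0.29 between 0 and 24 h (adjusted p = 0.0101); 8.8% of its exon bases lie opposite FAM53C, which had 72813 counts to its 8893. The CCNA2 call was lost without 12 h replicate 3 or 24 h replicate 1 or 2 (adjusted p = 0.122, 0.0703 and 0.0905), that of CDCA3 without 12 h replicate 1 or any 24 h library (adjusted p = 0.0687 to 0.149), and that of CDC25C without 0 h replicate 1 (adjusted p = 0.104). CKS2, a small CDK-binding subunit, had -0.18 between 12 and 24 h (adjusted p = 0.0635). The CCNB1 change missed the threshold against 12 h without 24 h replicate 1 (-0.18, adjusted p = 0.0764), and against 0 h without 24 h replicate 1, 24 h replicate 2 or the unnumbered 0 h library (adjusted p = 0.104, 0.0607 and 0.107).

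Of the mitotic kinases and the chromosomal passenger complex, 4 of 5 genes fell between 12 and 24 h and 2 of 5 between 0 and 24 h, with medians of -0.29 and -0.18. PLK1 (chr16:23677656-23690367), the polo-like kinase of mitotic entry and spindle assembly, stood at 49.4 and 58.5 CPM at 0 h, 52.9, 55.5 and 57.9 CPM at 12 h, and 43.3, 43.4 and 49.5 CPM at 24 h. The 24 h libraries lay below those of 12 h, and 24 h replicate 3 was level with 0 h replicate 1. The log2 change was -0.29 against 12 h (SE 0.06, adjusted p = 0.00423) and -0.25 against 0 h (SE 0.07, adjusted p = 0.00725). Without the unnumbered 0 h library the change against 0 h was -0.12 (adjusted p = 0.317), and without 24 h replicate 1 or 2 both changes narrowly missed the threshold (adjusted p = 0.0519 to 0.0579).

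AURKA (chr20:56369389-56392337), the Aurora kinase of spindle poles, stood at 37.3 and 37.6 CPM at 0 h, 35.0, 37.5 and 38.0 CPM at 12 h, and 29.4, 28.3 and 32.6 CPM at 24 h. All 24 h libraries were below all others, with log2 changes of -0.29 against 12 h (SE 0.06, adjusted p = 0.00233) and -0.32 against 0 h (SE 0.06, adjusted p = 0.000411). AURKB (chr17:8204733-8210600), the Aurora kinase of the passenger complex, stood at 15.7 and 15.8 CPM at 0 h, 17.3, 18.1 and 17.7 CPM at 12 h, and 14.0, 14.1 and 13.8 CPM at 24 h. The groups did not overlap: 12 h lay highest and 24 h lowest. Its change was past the threshold between 12 and 24 h (-0.34, SE 0.06, adjusted p = 0.00161) but not between 0 and 12 h (0.17, SE 0.07, adjusted p = 0.134) or 0 and 24 h (-0.18, SE 0.07, adjusted p = 0.1). BIRC5, survivin, had the same order of means, with log2 changes of 0.17 to 12 h (adjusted p = 0.0504), -0.21 from 12 to 24 h (adjusted p = 0.021) and -0.04 from 0 to 24 h (adjusted p = 0.769). Its fall from 12 h was lost without 12 h replicate 2 or 3 or 24 h replicate 1 or 2 (adjusted p = 0.0603 to 0.208). CDCA8, borealin, had -0.17 between 12 and 24 h (adjusted p = 0.153).

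Of the spindle checkpoint genes and partners of the anaphase-promoting complex, 3 of 5 fell between 12 and 24 h (BUB1, CDC20 and UBE2C) and 3 of 5 between 0 and 24 h (TTK, CDC20 and UBE2C), with medians of -0.24 and -0.22. CDC20 (chr1:43358981-43363203), the activator of the complex in mitosis, stood at 76.0 and 88.2 CPM at 0 h, 81.3, 83.7 and 85.3 CPM at 12 h, and 69.6, 67.8 and 73.9 CPM at 24 h. The 24 h libraries were below all others although the 0 h libraries lay far apart, with log2 changes of -0.24 against 12 h (SE 0.05, adjusted p = 0.00389) and -0.22 against 0 h (SE 0.06, adjusted p = 0.00475). Without the unnumbered 0 h library the change against 0 h was -0.11 (adjusted p = 0.273), and without 24 h replicate 2 that against 12 h was -0.22 (adjusted p = 0.0571). A pseudogene of CDC20, CDC20P1, had 1.11% as many counts as the gene.

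UBE2C (chr20:45812576-45816957), the ubiquitin-conjugating enzyme that serves the complex, stood at 40.8 and 41.2 CPM at 0 h, 41.0, 37.9 and 39.2 CPM at 12 h, and 30.9, 29.7 and 33.1 CPM at 24 h. Each 24 h library lay well below all others, with log2 changes of -0.33 against 12 h (SE 0.05, adjusted p = 0.000279) and -0.39 against 0 h (SE 0.06, adjusted p = 9.04e-06). Among the checkpoint kinases, BUB1 had a log2 change of -0.24 between 12 and 24 h (adjusted p = 0.0172) and TTK, the MPS1 kinase, one of -0.34 between 0 and 24 h (adjusted p = 0.00233). The BUB1 call was lost without 12 h replicate 2 or 3 or 24 h replicate 1 or 2 (adjusted p = 0.0634 to 0.178), and the TTK call without 0 h replicate 1 (-0.27, adjusted p = 0.104). TTK was the gene that was also lower at 12 than at 0 h when 12 h replicate 2 was left out. BUB1B, which encodes BUBR1, passed in neither (-0.14 and 0.02, adjusted p = 0.238 and 0.891).

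The kinetochore and centromere genes fell together between 0 and 24 h, 5 of 6, with a median of -0.27. Between 12 and 24 h 4 of 6 fell (NDC80, NUF2, CENPE and CENPF), with a median of -0.23. NUF2 (chr1:163266576-163355764), part of the NDC80 complex that grips microtubules, stood at 25.9 and 25.3 CPM at 0 h, 22.4, 22.5 and 24.5 CPM at 12 h, and 18.5, 18.8 and 20.6 CPM at 24 h. The groups formed 3 steps without overlap, with log2 changes of -0.15 to 12 h (SE 0.07, adjusted p = 0.178), -0.27 from 12 to 24 h (SE 0.06, adjusted p = 0.0122) and -0.41 from 0 to 24 h (SE 0.07, adjusted p = 3.55e-05). Without 12 h replicate 3, 24 h replicate 1 or 24 h replicate 2 the change from 12 h missed the threshold (adjusted p = 0.122, 0.111 and 0.0858). NDC80 itself had log2 changes of -0.20 against 12 h (adjusted p = 0.0402) and -0.23 against 0 h (adjusted p = 0.01). The former was lost without 12 h replicate 2 or 3 or 24 h replicate 1 or 2 (adjusted p = 0.0956, 0.186, 0.181 and 0.242), and the latter without 0 h replicate 1 or 24 h replicate 2 (adjusted p = 0.108 and 0.0759).

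CENPF (chr1:214603195-214664571), a large protein of the outer kinetochore, stood at 122 and 128 CPM at 0 h, 125, 132 and 144 CPM at 12 h, and 109, 100.8 and 111 CPM at 24 h. The 24 h libraries were below all others, with log2 changes of -0.32 against 12 h (SE 0.05, adjusted p = 0.000106) and -0.22 against 0 h (SE 0.05, adjusted p = 0.00299), the latter lost without the unnumbered 0 h library (-0.19, adjusted p = 0.0515). CENPA, the centromeric histone H3 variant, had the second lowest log2 change of the 47 genes between 0 and 24 h (-0.48, adjusted p = 0.000117), with 0 h means of 13.2 ± 0.968 CPM (SD, n = 2) and 24 h means of 9.45 ± 0.142 CPM (SD, n = 3). CENPE, the kinetochore kinesin, had -0.32 (adjusted p = 7.05e-05) and -0.21 against 12 h (adjusted p = 0.0144), the latter lost without 12 h replicate 3 or 24 h replicate 1 or 2 (adjusted p = 0.0756, 0.0625 and 0.129). HJURP, the chaperone that loads CENPA, passed in neither (-0.16 and -0.18, adjusted p = 0.111 and 0.12).

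**Figure D4:**
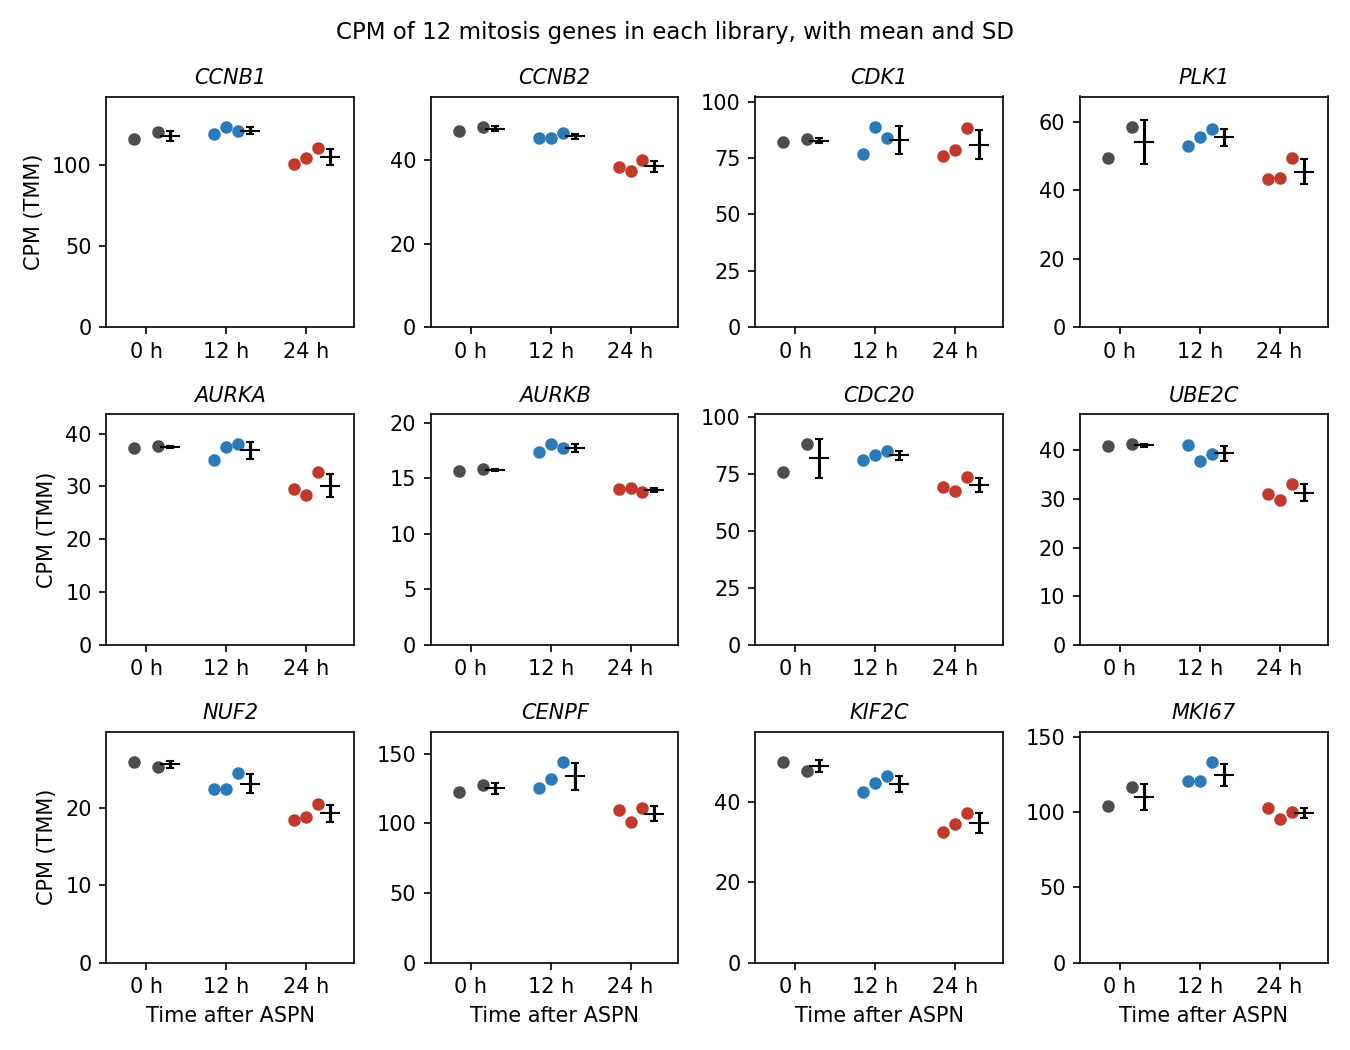
CPM (vertical axes, starting at 0) of 12 mitosis genes in each library at 0, 12 and 24 h after ASPN; each point is a library and the bars beside them give the mean and SD. For all but CDK1 and PLK1 every 24 h library lies below every earlier library; for PLK1 24 h replicate 3 and 0 h replicate 1 are level, and for CDK1 the groups overlap.

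Among spindle motors and microtubule proteins 5 of 12 fell between 12 and 24 h (KIF2C, KIF4A, TPX2, DLGAP5 and GTSE1) and 5 of 12 between 0 and 24 h (KIF2C, HMMR, DLGAP5, CKAP2L and GTSE1), with medians of -0.19 and -0.20. KIF2C (chr1:44739818-44767767), the kinesin MCAK that takes microtubule ends apart at kinetochores, had the lowest log2 change of the 47 genes in both comparisons. It stood at 49.9 and 47.7 CPM at 0 h, 42.5, 44.7 and 46.3 CPM at 12 h, and 32.4, 34.4 and 37.3 CPM at 24 h. The 3 groups did not overlap, with log2 changes of -0.36 from 12 to 24 h (SE 0.05, adjusted p = 0.000116) and -0.49 from 0 to 24 h (SE 0.06, adjusted p = 2.76e-07), a fall of 29.0%. DLGAP5 (chr14:55148112-55191608), a spindle assembly factor, stood at 53.9 and 51.1 CPM at 0 h, 49.3, 53.8 and 49.4 CPM at 12 h, and 40.1, 42.3 and 46.4 CPM at 24 h. The 24 h libraries were below all others, with log2 changes of -0.25 against 12 h (SE 0.05, adjusted p = 0.00779) and -0.29 against 0 h (SE 0.06, adjusted p = 0.000598); without 24 h replicate 1 or 2 the former missed the threshold (adjusted p = 0.116 and 0.059). The calls of KIF4A, TPX2 and GTSE1 against 12 h were lost without 12 h replicate 3 or 24 h replicate 1, and those of KIF4A and TPX2 also without 24 h replicate 2 (adjusted p = 0.0522 to 0.151). The calls of HMMR and CKAP2L against 0 h were lost without 0 h replicate 1 or 24 h replicate 1, and that of CKAP2L also without 24 h replicate 2 (adjusted p = 0.0504 to 0.269).

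TACC3 (chr4:1712858-1745171), which works with clathrin and AURKA on spindle fibres, took another course. It stood at 68.9 and 71.8 CPM at 0 h, 79.0, 76.8 and 77.8 CPM at 12 h, and 69.7, 70.7 and 73.6 CPM at 24 h. The 12 h libraries were above all others while 0 h and 24 h overlapped, with log2 changes of 0.15 to 12 h (SE 0.05, adjusted p = 0.048), -0.13 from 12 to 24 h (SE 0.04, adjusted p = 0.13) and 0.02 from 0 to 24 h (SE 0.05, adjusted p = 0.853). The rise at 12 h lay at the edge of the threshold and was lost in 9 of 17 alternatives, among them the removal of 0 h replicate 1 (0.12, adjusted p = 0.378), 12 h replicate 1 or 3 (adjusted p = 0.0598 and 0.103) or any 24 h library (adjusted p = 0.0625 to 0.0703). CKAP2 was the gene of this set with the nearest to level values at 24 against 0 h (-0.01, adjusted p = 0.943) and stood at 0.07 against 12 h (adjusted p = 0.603). KIF11, the bipolar spindle kinesin Eg5, had -0.14 and -0.12 (adjusted p = 0.233 and 0.202).

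Of the midzone and cytokinesis genes, 1 of 7 passed in each 24 h comparison, KIF20A in both, with medians of -0.13 and -0.13. The shares of all tested genes that fell were 1.61% from 12 h and 8.49% from 0 h. All 7 had log2 changes below 0 in both comparisons. Every 24 h library lay below every 12 h library for 4 of the 7 (9.33% of all genes) and below both 0 h libraries for 6 (21.7%). KIF20A (chr5:138178719-138187723), the kinesin MKLP2 that carries the passenger complex to the midzone, stood at 45.1 and 51.4 CPM at 0 h, 48.1, 47.3 and 50.8 CPM at 12 h, and 40.1, 38.0 and 43.7 CPM at 24 h. The 24 h libraries were below all others, with log2 changes of -0.26 against 12 h (SE 0.06, adjusted p = 0.00569) and -0.25 against 0 h (SE 0.06, adjusted p = 0.00442). Without the unnumbered 0 h library the change against 0 h was -0.15 (adjusted p = 0.181) and without 24 h replicate 2 it was -0.20 (adjusted p = 0.0522). Without 12 h replicate 3, 24 h replicate 1 or 24 h replicate 2 that against 12 h missed the threshold (adjusted p = 0.0624, 0.0523 and 0.0888). RACGAP1 (chr12:49976923-50033136), part of centralspindlin, stood at 67.9 and 65.7 CPM at 0 h, 65.1, 68.3 and 67.5 CPM at 12 h, and 62.9, 56.8 and 63.9 CPM at 24 h. Its 24 h libraries were also below all others, but the log2 changes of -0.13 and -0.13 did not pass (SE 0.05 and 0.05, adjusted p = 0.168 and 0.113). The contractile ring genes ANLN and ECT2 (anillin and the RhoA activator) and the kinesins KIF23 and KIF20B had log2 changes of -0.13, -0.11, -0.11 and -0.12 between 12 and 24 h, none of them past the threshold.

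Among genes of chromosome structure 3 of 5 fell between 12 and 24 h (TOP2A, NCAPD2 and MKI67) and 2 of 5 between 0 and 24 h (NCAPD2 and CDCA2), with medians of -0.21 and -0.15. MKI67 (chr10:128096659-128126423), the Ki-67 protein that coats mitotic chromosomes and is the common label of dividing cells, stood at 104 and 117 CPM at 0 h, 121, 121 and 133 CPM at 12 h, and 103, 95.7 and 99.95 CPM at 24 h. The 12 h libraries lay above all others and the 24 h libraries below all others, with log2 changes of 0.18 to 12 h (SE 0.05, adjusted p = 0.0233), -0.33 from 12 to 24 h (SE 0.05, adjusted p = 6.62e-05) and -0.15 from 0 to 24 h (SE 0.05, adjusted p = 0.053). The rise at 12 h was lost without 0 h replicate 1 (0.10, adjusted p = 0.513), without 12 h replicate 3 (0.14, adjusted p = 0.162) and in a fit of these time points alone (adjusted p = 0.0667). The last change passed in 8 of 17 alternatives.

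TOP2A (chr17:40388525-40417896), topoisomerase II alpha, which untangles sister chromatids, stood at 119 and 118 CPM at 0 h, 115, 121 and 127 CPM at 12 h, and 104, 104 and 115 CPM at 24 h. The 12 h and 24 h libraries overlapped slightly, with a log2 change of -0.17 (SE 0.05, adjusted p = 0.0429) that was lost without 12 h replicate 2 or 3 or 24 h replicate 1 or 2 (adjusted p = 0.0586, 0.286, 0.246 and 0.241). NCAPD2 (chr12:6493356-6531955), a condensin subunit, stood at 172 and 179.8 CPM at 0 h, 175, 175 and 179.7 CPM at 12 h, and 148, 151 and 161 CPM at 24 h. No 24 h library reached the earlier levels, with log2 changes of -0.21 (SE 0.04, adjusted p = 0.00365; without 24 h replicate 1, -0.18, adjusted p = 0.0637) and -0.20 against 0 h (SE 0.05, adjusted p = 0.00206). SMC4, the condensin ATPase subunit, stood at -0.04 in both comparisons (adjusted p = 0.773 and 0.706). CDCA2, which brings a phosphatase to chromatin, had -0.26 between 0 and 24 h (adjusted p = 0.00749), lost without the unnumbered 0 h library or 24 h replicate 1 (adjusted p = 0.0733 and 0.0658).

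Over all roles, 15 genes fell in both 24 h comparisons, 6 only passed against 0 h, 9 only passed against 12 h and 17 passed in neither; the difference between the comparisons was not tested. The 30 genes with a CHR in their window and the 10 without had medians of -0.19 and -0.22 between 12 and 24 h, with 13 of 30 and 7 of 10 past the threshold, and -0.19 and -0.17 between 0 and 24 h, with 13 of 30 and 4 of 10. The 31 genes with a CCAAT box and the 9 without had medians of -0.21 and -0.14 between 12 and 24 h, with 16 of 31 and 4 of 9 past the threshold. Between 0 and 24 h their medians were -0.18 and -0.06, with 13 of 31 and 4 of 9. These differences were not tested. KIF2C, whose window held neither element, had the lowest change. The windows of CENPE, TACC3 and CKAP2 also held neither, with -0.21, -0.13 and 0.07 from 12 to 24 h. CCNB1, CDC20, CCNB2 and MKI67 lay between -0.21 and -0.33. Levels per kilobase of exon differed widely, from 81.0 CPM per kb for CKS2, 46.9 for CCNB1 and 38.9 for CDC20 to 0.218 for PRC1 and 0.123 for NUSAP1.

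NUSAP1 and PRC1, which bundle microtubules, had too few counts to follow, 18 to 51 and 69 to 130 per library, with log2 changes of 0.35 (SE 0.35, adjusted p = 0.73) and -0.20 (SE 0.20, adjusted p = 0.745) from 12 to 24 h. Most of the exon bases of PRC1 are shared with AC068831.18 on the same strand (57.6%, with 1029 counts to 813 of PRC1) and 34.3% lie opposite PRC1-AS1. NUSAP1 shares 9.76% of its exon bases with OIP5 on the other strand and 5.4% with OIP5-AS1 on the same strand, which had 106820 counts to 298 of NUSAP1. Reads from bases shared on the same strand cannot be told apart. For bases shared with the other strand this is open, as the strand setting of the counting was not stated. CENPA shares 7.08% of its exon bases with SLC35F6 on the same strand, which had 23748 counts to 7429 of CENPA. Others share exon bases with the other strand, among them SMC4 (19%, with TRIM59), PLK1 (11.6%), CDCA3 (11.3%), CCNA2 (9.24%) and CKAP2L (8.69%).

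Among mitosis genes outside the 47, more fell than rose at 24 h. Of 69 such genes, 19 fell and 0 rose between 12 and 24 h (median -0.13), beside 1.61% and 1.12% of all tested genes. Between 0 and 24 h 15 fell and 2 rose (PKMYT1 and NCAPD3), with a median of -0.09, beside 8.49% and 7.82%. Between 0 and 12 h 1 fell and 8 rose (median 0.06), beside 6.75% and 4.85%. PTTG1, securin, which guards the sister chromatids until anaphase, had -0.42 from 12 to 24 h (SE 0.05, adjusted p = 2.99e-06), and MIS12, of the inner kinetochore, -0.36 from 0 to 24 h (SE 0.06, adjusted p = 2.17e-05). MIS12 was also the gene that fell by 12 h (-0.20, adjusted p = 0.0199), a call lost without 0 h replicate 1 or 12 h replicate 1 or 3 (adjusted p = 0.374, 0.0666 and 0.0693) and with GC and length offsets (-0.10, adjusted p = 0.14). Of 15 genes of the anaphase-promoting complex (subunits and FZR1), 0 passed the threshold in either direction between 12 and 24 h in edgeR (median -0.01). Between 0 and 24 h 2 fell (ANAPC13 and CDC26) and 2 rose (ANAPC2 and ANAPC7), beside 8.49% and 7.82% of all tested genes. Between 0 and 12 h 1 fell (ANAPC13) and 1 rose (ANAPC2), near the 6.75% and 4.85% of all tested genes. At an unadjusted p under 0.05, 2 of the 15 were lower and 1 higher between 12 and 24 h, beside 6.86% and 6.74% of all genes. ANAPC13 fell by 0.26 on the log2 scale from 0 to 12 h (adjusted p = 0.00081) and CDC26 by 0.28 from 0 to 24 h (adjusted p = 0.00859; 0.0609 without the unnumbered 0 h library and 0.0527 without 24 h replicate 1).

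Of 17 genes that control transcription of mitosis genes or their arrest, 3 fell (FOXM1, MYBL2 and CDKN1A) and 0 rose between 12 and 24 h, beside 1.61% and 1.12% of all tested genes. Between 0 and 24 h 4 fell (CDKN1A, RBL2, LIN54 and LIN52, the last 3 of them DREAM subunits) and 2 rose (MYBL2 and TFDP2), beside 8.49% and 7.82%. Between 0 and 12 h 3 fell (CDKN1A, RBL2 and LIN54) and 1 rose (MYBL2), beside 6.75% and 4.85%. The counts that rose were near those shares. FOXM1, the activator of G2 and mitosis genes, stood at 82.5 and 91.4 CPM at 0 h, 90.6, 95.5 and 94.0 CPM at 12 h, and 78.6, 75.9 and 82.0 CPM at 24 h. All 24 h libraries were below all others, with a log2 change of -0.24 from 12 h (SE 0.05, adjusted p = 0.00194) and -0.14 from 0 h (SE 0.05, adjusted p = 0.0611). The latter passed in 6 of 17 alternatives, among them GC and length offsets (-0.19, adjusted p = 0.00163). MYBL2, which encodes B-MYB, stood at 43.2 and 52.6 CPM at 0 h, 64.2, 63.7 and 64.1 CPM at 12 h, and 55.8, 56.5 and 55.9 CPM at 24 h. All later libraries lay above both 0 h libraries, with log2 changes of 0.42 (SE 0.06, adjusted p = 1.17e-05) and 0.23 (SE 0.06, adjusted p = 0.00725; without 0 h replicate 1, 0.09, adjusted p = 0.492), and -0.19 from 12 to 24 h (SE 0.05, adjusted p = 0.0429), lost without 12 h replicate 2 or 3 or any 24 h library (adjusted p = 0.0582 to 0.176). CDKN1A, the CDK inhibitor p21, fell from 302.2 ± 0.552 CPM (SD, n = 2) at 0 h to 208 ± 15.2 (SD, n = 3) at 12 h and 172 ± 2.44 (SD, n = 3) at 24 h, log2 changes of -0.54 and -0.81 from 0 h (adjusted p = 1.06e-08 and 1.85e-13).

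**Figure D5:**
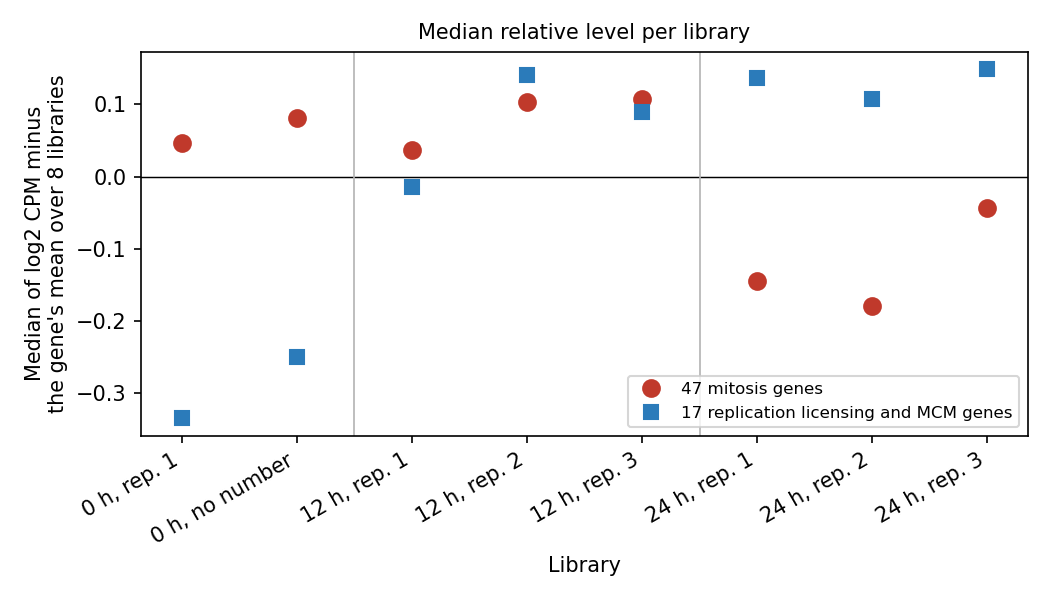
Median over genes of log2 CPM minus each gene's mean over the 8 libraries (vertical axis) in each library (horizontal axis), for the 47 mitosis genes (circles) and 17 replication licensing and MCM genes (squares). The licensing genes are lowest at 0 h (-0.33 and -0.25), whereas the mitosis genes are lowest at 24 h (-0.14, -0.18 and -0.04).

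Genes of replication licensing, which act before and in S phase, had the other time course. Of 17 such genes, 12 rose and 0 fell between 0 and 12 h (median 0.32, 4 of them by at least 1.5-fold), beside 4.85% and 6.75% of all tested genes. Between 0 and 24 h 13 rose and 0 fell (median 0.42, 7 by at least 1.5-fold), beside 7.82% and 8.49%. Between 12 and 24 h 1 rose (MCM6) and 0 fell, with a list median of 0.10, beside 1.12% and 1.61%. MCM5, a subunit of the replicative helicase, stood at 21.7 and 26.5 CPM at 0 h, 36.5, 39.3 and 37.2 CPM at 12 h, and 43.7, 38.8 and 41.8 CPM at 24 h, with log2 changes of 0.65 and 0.78 from 0 h (adjusted p = 1.89e-07 and 8.84e-10). MCM6 had log2 changes of 0.55 and 0.78 (adjusted p = 8.21e-07 and 2.19e-10) and 0.24 from 12 to 24 h (adjusted p = 0.0159), the last lost without 12 h replicate 1 or 3 or 24 h replicate 1 or 3 (adjusted p = 0.0558 to 0.149). Of the 14 licensing genes with a promoter window, 0 held a CHR and 11 a CCAAT box (78.6%). The difference between the lists was not tested.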

How the data were processed

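mRNA-seq libraries of ASPN-treated LNCaP cells were compared at 0 h (n = 2), 12 h (n = 3) and 24 h (n = 3), which the labels call biological replicates; cells were plated in 6-well plates, and p-values measure the spread between these cultures. The deposited values were raw read counts per gene, not normalized: the authors trimmed reads with Cutadapt, aligned them to GRCh38 with STAR and counted GENCODE genes with featureCounts. Strand and multi-mapping options were not given in the sources used here. Per the study's methods 1 time-0 replicate was dropped for quality; the number on 1 of the 2 time-0 columns used matches no label, so that library is called unnumbered. A count of 0 allows up to 0.0309 to 0.0409 CPM (3 counts, counting error only). No within-group pair of libraries agreed within sampling noise (chi-square per degree of freedom 5.1 to 13.8).

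Counts were tested with edgeR 4.0.16 in R 4.3.3 (TMM, filterByExpr, robust quasi-likelihood F test, 1 coefficient per time over 8 libraries, Benjamini-Hochberg over 21071 genes). Fold changes are 2 to the log2 change, and SE is the log2 change divided by the square root of F. Thresholds were an adjusted p of 0.05 and, for calls, 1.5-fold, as the study used. The fit was tested on simulated data. Of genes set there to change 1.25-fold, 47.8% passed an adjusted p of 0.05 at 24 against 0 h. At 24 against 12 h 54.3% did. A gene short of the threshold may therefore still have changed by that much. Alternatives were other normalizations (RLE, upper quartile), filters, DESeq2 1.42.0, pairs of time points, protein-coding genes, GC and length offsets, thinned counts, a replicate block and omission of each library.

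Genes and lists were chosen with earlier results of these data known. Genes named with full values were, per role, the 2 with the smallest p, CCNB1, CDK1, PLK1, AURKA, MKI67, TOP2A, those past adjusted p at 12 h, and from each companion list the 2 with the smallest p plus FOXM1, MYBL2 and CDKN1A. Promoters are from RefSeq (GRCh38.p14). Exon lengths, shared exon bases and GC content are from GENCODE 44, a later release than the study counted with. Of the 36474 genes, 30996 had the same versioned identifier in it, so shared bases may differ from those of the counting. Gene coordinates are those of the file.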

Additional observations from a re-analysis of the deposited data

How the results depend on the processing

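The 21 falls between 0 and 24 h stayed between 15 and 26 under 17 alternatives. The 24 falls between 12 and 24 h became 25 to 34 under the alternatives that kept all libraries of both times. The 34 came with GC and length offsets. Leaving out 1 library gave 8 to 29. The 2 rises between 0 and 12 h became 9 with GC and length offsets and 0 in a fit of those time points alone, and leaving out 1 library gave 0 to 5; the 0 falls became 0 to 1. Without 0 h replicate 1 or 12 h replicate 3 the median between 0 and 12 h changed sign (-0.008 and -0.003); the medians to 24 h ran from -0.235 to -0.137 from 0 h and from -0.244 to -0.187 from 12 h. The cause of these shifts was not tested. Of 1404 pairs of a named gene's change and an alternative, 55 lost and 32 gained the threshold. In 0 pairs did the change pass in opposite directions. In 42 pairs the sign differed with neither value past the threshold. Same-numbered 12 and 24 h libraries correlated at 0.112, 0.037 and 0.025 in their deviations, and 12 h replicate 2 correlated best with 24 h replicate 3 (0.054), so the numbers were not taken as pairs; with a replicate block, 27 genes fell, 24 of them those reported. With every library thinned to the smallest total, 22 genes fell from 0 h and 26 from 12 h.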

Other observations

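Beyond the genes given above, the 19 other mitosis genes that fell between 12 and 24 h came from several structures; the following were chosen after their values were seen. At the kinetochore, CENPW, CENPH and KNL1 had log2 changes of -0.40 (adjusted p = 0.00711), -0.33 (adjusted p = 0.00254) and -0.32 (adjusted p = 0.00221). TROAP, a microtubule-associated protein, had -0.38 (adjusted p = 0.00139), KIF14, a cytokinesis kinesin, -0.32 (adjusted p = 0.00641), and ESPL1, the separase that PTTG1 inhibits, -0.30 (adjusted p = 0.0194). Of the 8 that rose between 0 and 12 h, CENPM and SPC24 had 0.38 (adjusted p = 0.00246) and 0.32 (adjusted p = 0.000559), and both fell between 12 and 24 h (-0.29 and -0.24, adjusted p = 0.0244 and 0.0134).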
